A study of Triticum aestivum with 32 samples.

Results

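The heat-raised genes are 99 wheat gene models whose flag leaf RNA was at least 2-fold higher in heated than in unheated plants in each of 4 backgrounds. The backgrounds were salt with drought, salt, drought and neither stress. A member is a high confidence gene model with a mean of at least 5 TPM (transcript abundance per gene length, scaled to a total of 1000000 in each library) in its highest treatment group. In each background the heated group mean plus 1 TPM also had to be at least 2 times the unheated group mean plus 1 TPM. The rule would have taken the first 150 by the smallest of the 4 ratios, but fewer passed. The 99 come from 107892 high confidence gene models, of which 26441 had a group mean of at least 5 TPM. A set of 12 gene models on chromosomes 3B and 4D is left out by the rule itself, 6 of which met its other steps. The members were thus selected on measured heated to unheated ratios, which are given as a description. A test of heat over the same libraries is quoted once, for its background share, and nothing is read from it.

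When a plant cell warms, proteins unfold, and heat shock factors switch on genes for molecular chaperones that refold or protect them. In leaves the response also guards the photosynthetic machinery and membranes. Bread wheat is hexaploid, so many genes exist as similar copies on the A, B and D subgenomes. The identifiers matched none of the 155467 genes of the reference table used here, so no member is given a name or a role, and the flag leaf label was not checked against marker genes. No sequence is printed for the same reason.

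Flag leaf RNA of Stettler, a spring wheat cultivar from Canada, was sequenced in 8 groups of 4 libraries, to compare single with combined stresses during grain filling. All 32 libraries share this genotype. Treatments began 5 weeks after sowing, at Feekes stage 8, with 8 pots per treatment. The heated groups, warmed to 30 °C for part of each day, were salt plus heat plus drought (the triple stress), salt plus heat, heat plus drought, and heat. Their unheated counterparts, at day and night settings of 24 °C and 18 °C, were salt plus drought, salt, drought, and control. Droughted pots were held at 40% of field capacity and the others at 100%. Salted pots received 250 ml of sodium chloride solution at 20, then 40, then 80 mM. Heated pots stood in a greenhouse of their own, so heat and greenhouse cannot be told apart in any heated to unheated ratio. In RNA from whole leaves, fewer cells of a type and less RNA per cell cannot be told apart.

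Depth is unknown, since TPM keep no record of read numbers. The number of gene models at 1 TPM or more ran from 44106 to 53532 over the libraries. A few libraries stood apart from their groups. The 100 most abundant genes held 36.1% and 32.2% of all TPM in heat replicates 1 and 3, against 21.7% and 20.8% in heat replicates 2 and 4. They held 33.5% in control replicate 3 and 21.9% to 23.5% in the other controls. Low confidence models held 21.6% of TPM in salt replicate 3, against 7.81% at the lowest among all libraries. Results that rest on the heat group are therefore also given without heat replicates 1 and 3, an omission chosen after the data were seen. The part of the abundant genes' share in those results was not tested.

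The heat-raised genes together held 1888 to 9167 TPM in the 16 heated libraries and 454 to 1003 TPM in the 16 unheated libraries. Heated and unheated libraries did not overlap in this sum, a separation that the rule favours and from which nothing is read. In the heated libraries 54 to 98 of the 99 members reached 5 TPM, against 22 to 47 in the unheated libraries. Mean level over the heated libraries ran from 3.65 to 379 TPM with a median of 25.5 TPM. Of the members, 9 averaged at least 100 TPM there, 60 lay between 10 and 100 TPM, and 30 lay below 10 TPM. Over the unheated libraries the median of the member means was 2.81 TPM, with 32 members below 1 TPM, 45 between 1 and 10 TPM and 22 at 10 TPM or more. The group thus ranges from genes near 0 TPM without heat to genes already abundant there.

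**Figure D1:**
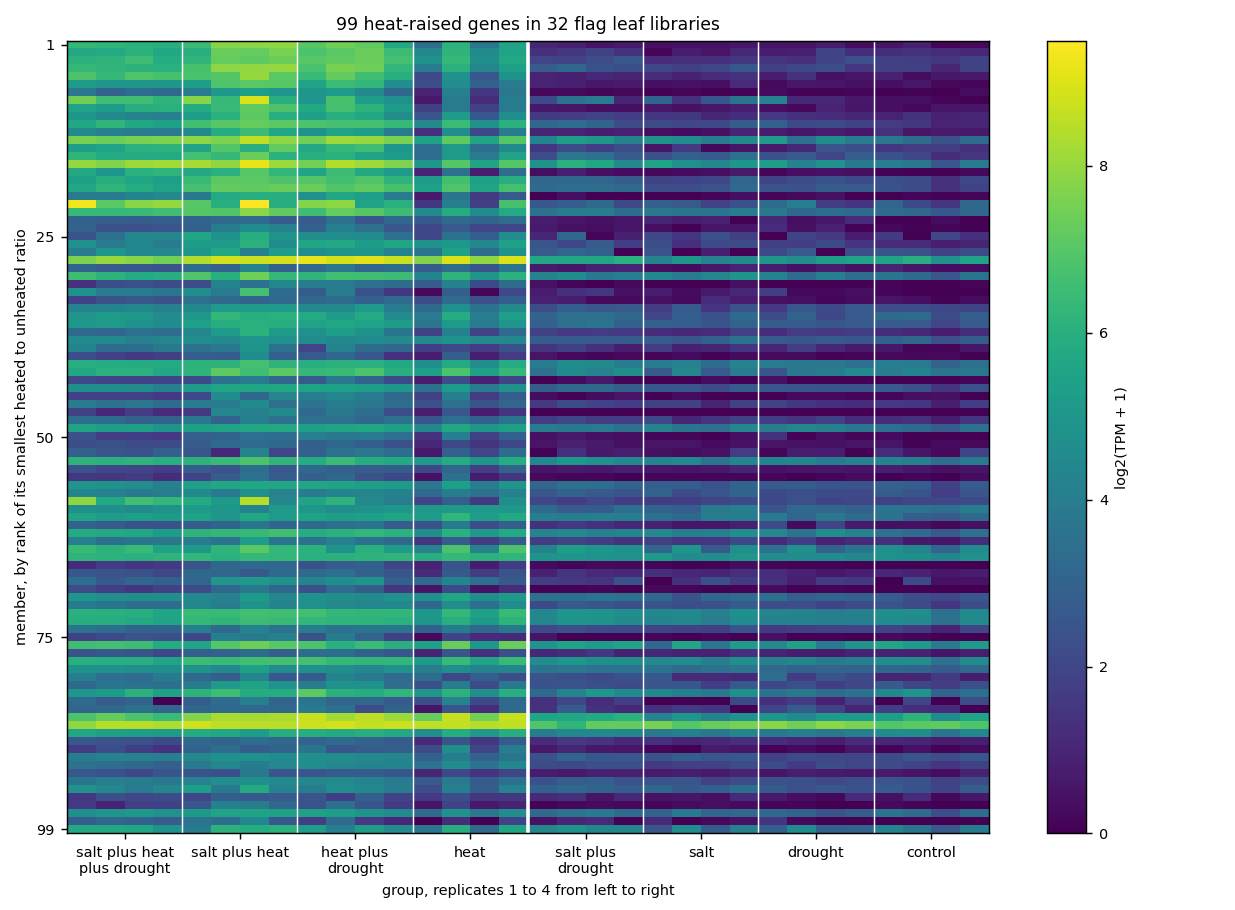
Level of each of the 99 heat-raised genes (one line of the picture per gene, ordered by smallest ratio, largest at the top) in each of the 32 libraries, as log2(TPM + 1) on the colour scale, heated groups on the left and unheated groups on the right. Heat replicates 1 and 3 are darker (lower) than heat replicates 2 and 4 for most members. In 66 members all 16 heated libraries lie above all 16 unheated ones, against 0.165% of all genes tested, a separation that the rule favours.

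The size of the ratio differed among backgrounds. Its median over members was 3.06 for the triple stress over salt plus drought, 7.05 for salt plus heat over salt, 5.84 for heat plus drought over drought, and 4.01 for heat over control. The largest single ratios were 54.4, 139, 86.3 and 25.7 in the same 4 backgrounds. The background with the largest ratio was salt for 65 members, drought for 23, neither stress for 9, and salt with drought for 2. The background with the smallest ratio was salt with drought for 58 members, neither stress for 36, drought for 4, and salt for 1. The median ratio of heat over control was 5.70 without heat replicates 1 and 3, and the largest was 42.4.

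**Figure D2:**
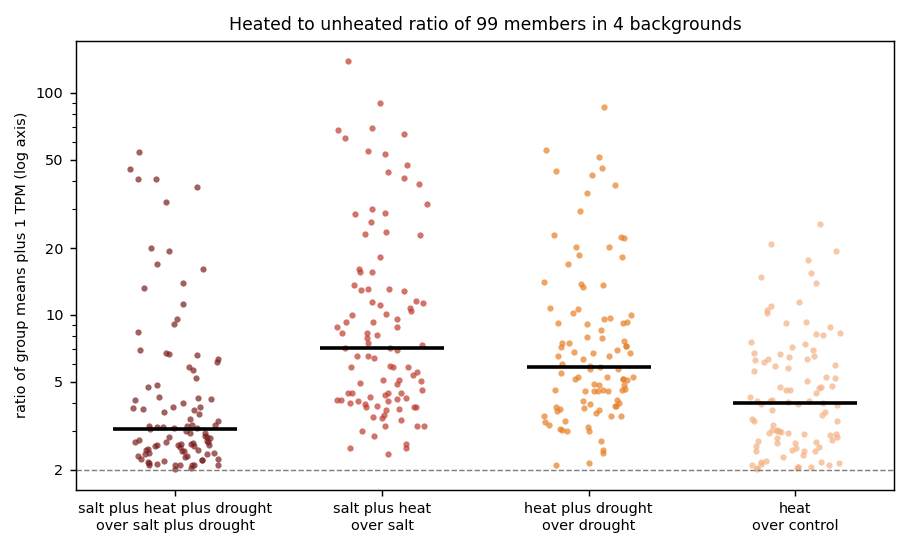
Ratio of heated to unheated group means (each plus 1 TPM, log axis) of the 99 members in each of the 4 backgrounds, with the median marked and the 2-fold limit of the rule as a line. The medians are 3.06, 7.05, 5.84 and 4.01 from left to right, and no member lies below 2 because the rule removed such genes.

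The smallest of a member's 4 ratios was at least 10 for 6 members, between 5 and 10 for 15, between 3 and 5 for 19, and between 2 and 3 for 59, with a median of 2.68. In 66 members every heated library lay above every unheated library, which held for 0.165% of all 60684 genes tested. Heat averaged over the 4 backgrounds was called higher for all 99 members and for 7.22% of all genes tested, while 2.55% of all genes were lower. Nothing is read from either count, since the rule used that contrast. The 14 heated libraries other than heat replicates 1 and 3 lay above all unheated ones in 86 members. The share over all genes was not counted for this omission, and nothing is read from that count either. Among the members just inside the limit, the smallest ratio was 2.03 for TraesCS3B02G329100, 2.02 for TraesCS3B02G384900 and 2.01 for TraesCS1B02G194700. Just outside it were TraesCS3B02G293100 and TraesCS2A02G252800, at 1.999 and 1.997, and TraesCS4A02G095500 at 1.98.

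TraesCS2D02G276000 had the largest smallest ratio, 25.7. It stood at 78.7, 72.4, 66.7 and 60.8 TPM in the triple stress, 88.3, 219, 231 and 234 TPM in salt plus heat, 130, 174, 145 and 52.4 TPM in heat plus drought, and 10.1, 68.9, 12.8 and 45.8 TPM in heat. In the unheated groups it stood at 0.44 to 1.04 TPM in salt plus drought, 0.32 to 0.52 TPM in salt, 0.25 to 0.70 TPM in drought and 0.09 to 0.81 TPM in control. No heated library came near an unheated one, and salt plus heat was highest except for its replicate 1. TraesCS2B02G294500 and TraesCS2A02G277100, which lie at a similar relative order on chromosomes 2B and 2A, showed the same ranking of heated group means. TraesCS2B02G294500 averaged 71.1 ± 6.60 TPM in the triple stress, 209 ± 70.2 in salt plus heat, 135 ± 50.8 in heat plus drought and 35.0 ± 23.4 in heat (SD, n = 4 each). Its unheated means were 5.44 ± 1.91, 3.42 ± 1.12, 2.83 ± 0.8292 and 2.15 ± 0.757 TPM in salt plus drought, salt, drought and control (SD, n = 4 each). TraesCS2A02G277100 averaged 32.01 ± 3.70, 104 ± 44.4, 58.2 ± 29.7 and 12.04 ± 9.09 TPM in the same heated groups, and at most 0.710 ± 0.169 TPM in an unheated group (SD, n = 4 each). Replicate 1 was the lowest salt plus heat library for all 3 of these members.

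On chromosome group 6, TraesCS6A02G316200 and TraesCS6B02G346700 were next, with smallest ratios of 17.7 and 13.9. TraesCS6A02G316200 averaged 56.4 ± 7.87 TPM in the triple stress, 141 ± 54.7 in salt plus heat, 123 ± 31.03 in heat plus drought and 39.5 ± 24.4 in heat, against 1.88 ± 0.492, 0.580 ± 0.421, 1.42 ± 1.02 and 1.28 ± 0.207 TPM in salt plus drought, salt, drought and control (SD, n = 4 each). TraesCS6B02G346700 averaged 133 ± 40.6 TPM in salt plus heat and 134 ± 25.7 TPM in heat plus drought, so the order of these 2 groups was not resolved. TraesCS6D02G295500, at a similar relative order on 6D, averaged 54.3 ± 15.3, 94.2 ± 49.7, 64.4 ± 29.0 and 18.8 ± 11.3 TPM in the same 4 heated groups (SD, n = 4 each). All 3 members of this set had every heated library above every unheated one.

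TraesCS5D02G266000, TraesCS5B02G257000 and TraesCS5A02G257700 form a set on chromosome group 5 whose heat level was low beside the combinations. TraesCS5A02G257700 stood at 52.0, 30.5, 65.3 and 74.3 TPM in the triple stress, 52.5, 64.2, 131 and 77.6 TPM in salt plus heat, 45.2, 91.4, 53.9 and 34.2 TPM in heat plus drought, and 0.90, 10.1, 0.67 and 9.54 TPM in heat. Among unheated libraries it ran from 0 to 0.73 TPM. Heat replicate 3, at 0.67 TPM, lay below its highest unheated library, so the 2 sets of libraries overlapped by that 1 value. TraesCS5D02G266000 averaged 104 ± 17.3, 155 ± 67.6, 97.5 ± 36.5 and 15.9 ± 13.7 TPM in the 4 heated groups in that order (SD, n = 4 each). TraesCS5B02G257000 averaged 51.1 ± 13.7, 99.5 ± 36.9, 65.8 ± 28.1 and 8.42 ± 6.74 TPM (SD, n = 4 each). In all 3 members each library of a heated combination was above every library of heat alone.

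TraesCS2D02G033200 was the member of the first 12 with the lowest unheated level. It averaged 9.5 ± 2.20, 29.0 ± 11.01, 23.9 ± 11.7 and 7.99 ± 7.79 TPM in the triple stress, salt plus heat, heat plus drought and heat, and at most 0.150 ± 0.0183 TPM in an unheated group (SD, n = 4 each). TraesCS4A02G092100 and TraesCS4B02G212300 had the same order of heated groups, with salt plus heat at 75.3 ± 41.9 and 55.3 ± 28.4 TPM and heat at 17.6 ± 15.4 and 11.02 ± 10.7 TPM (SD, n = 4 each). TraesCS1B02G294300 averaged 54.1 ± 13.4, 130 ± 22.1, 99.3 ± 12.4 and 50.8 ± 31.7 TPM in the 4 heated groups, against 7.16 ± 2.60, 3.98 ± 1.39, 3.97 ± 1.72 and 1.48 ± 0.605 TPM in salt plus drought, salt, drought and control (SD, n = 4 each). In this member the libraries of the triple stress and heat overlapped.

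TraesCS3D02G346300 varied widely between libraries of 1 group. It stood at 173, 94.7, 94.2 and 71.7 TPM in the triple stress, 217, 82.4, 482 and 62.8 TPM in salt plus heat, 30.96, 105, 39.2 and 26.6 TPM in heat plus drought, and 0.56, 14.04, 1.33 and 15.2 TPM in heat. Unheated values were 3.32, 10.7, 14.2 and 0.96 TPM in salt plus drought, 7.27, 1.59, 4.88 and 11.97 TPM in salt, 17.4, 1.15, 1.06 and 0.52 TPM in drought, and 0 to 0.29 TPM in control. Heat replicates 1 and 3 lay within the unheated range, and drought replicate 1 and salt plus drought replicate 3 were above heat replicate 2.

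Among the most abundant members, TraesCS2B02G425600 had both the highest heated and the highest unheated mean. It averaged 316 ± 50.4 TPM in the triple stress, 390 ± 43.0 in salt plus heat, 431 ± 31.7 in heat plus drought and 381 ± 17.0 in heat, against 122 ± 35.6, 164 ± 29.3, 204 ± 26.6 and 131 ± 12.5 TPM in salt plus drought, salt, drought and control (SD, n = 4 each). Its 4 ratios lay between 2.11 and 2.90, and heat replicates 1 and 3 were level with the other heat libraries.

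TraesCS7B02G149200 and TraesCS7A02G242200 came next in heated level. TraesCS7B02G149200 stood at 197, 255, 216 and 175 TPM in the triple stress, 331, 461, 429 and 470 TPM in salt plus heat, 572, 468, 531 and 430 TPM in heat plus drought, and 208, 498, 237 and 514 TPM in heat. It averaged 54.3 ± 7.22 TPM in salt plus drought, 22.2 ± 6.35 in salt, 34.7 ± 8.72 in drought and 44.0 ± 13.8 in control (SD, n = 4 each). The triple stress was lowest of the heated groups and salt plus drought highest of the unheated groups, so the ratio was 3.83 in salt with drought and 18.3 in salt alone. TraesCS7A02G242200 was likewise lowest in the triple stress among heated groups, with 116 ± 25.9, 282 ± 47.1, 333 ± 66.3 and 285 ± 137 TPM in the 4 heated groups and ratios of 2.11 in salt with drought and 11.5 in salt (SD, n = 4 each). TraesCS4B02G059500 averaged 255 ± 35.8, 345 ± 147, 247 ± 70.9 and 82.7 ± 51.4 TPM in the 4 heated groups, against 40.7 ± 19.8, 30.3 ± 10.4, 24.0 ± 10.8 and 11.9 ± 4.88 TPM in the unheated ones (SD, n = 4 each). TraesCS4D02G059000 averaged 183.4 ± 13.9 TPM in the triple stress and 88.1 ± 51.3 TPM in heat (SD, n = 4 each).

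**Figure D3:**
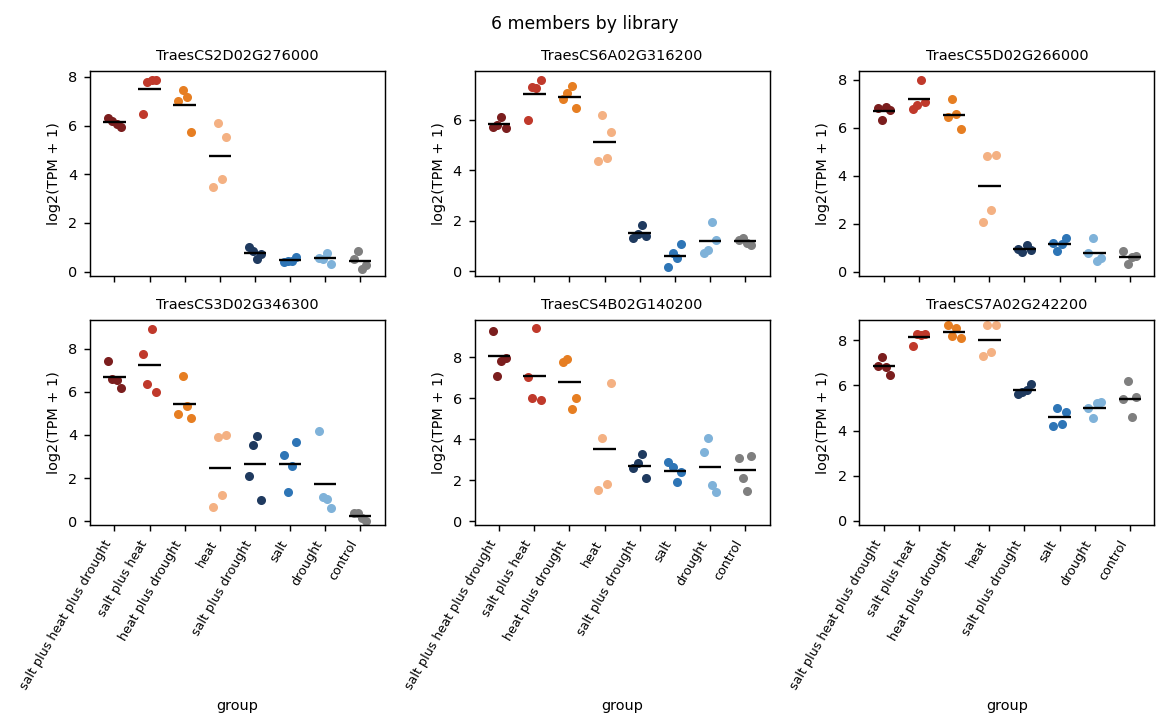
Level of 6 named members in every library, as log2(TPM + 1), by group, with heated groups left of unheated ones, each point a library and each bar a group mean. Replicates run from left to right within a group, and heat replicates 1 and 3 are the lowest heat libraries in each plot; TraesCS2D02G276000 has its 16 heated libraries above all unheated ones.

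Salt plus heat was the highest heated group for 74 of the 99 members, or 74.7%, against 45.9% of the high confidence genes with a group mean of at least 5 TPM. Heat plus drought was highest for 17 members (17.2%, against 11.7% of those genes), heat for 5 (5.05%, against 11.8%) and the triple stress for 3 (3.03%, against 30.5%). The 5 with heat highest were TraesCS7B02G109100, TraesCS6D02G322200, TraesCS5A02G314700, TraesCS5D02G321000 and TraesCS7B02G083500. The 3 with the triple stress highest were TraesCS4B02G140200, TraesCS4A02G177600 and TraesCS2B02G077700; both lists are short and are named after their values were seen. Heat was the lowest heated group for 60 members and the triple stress for 33. These counts depend on heat replicates 1 and 3, which were both below heat replicates 2 and 4 in 92 members, against 59.1% of all genes tested. Without them salt plus heat was highest for 66 members, heat for 20, heat plus drought for 10 and the triple stress for 3, and the triple stress was lowest for 53 and heat for 40. Shares over other genes were not counted for this omission, nor for the lowest group in either case.

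The median TPM over members was 25.8, 20.3, 19.7 and 17.0 TPM in the triple stress, 24.5, 33.3, 46.1 and 29.9 TPM in salt plus heat, 26.7, 28.4, 28.2 and 19.0 TPM in heat plus drought, and 6.66, 23.5, 6.90 and 19.5 TPM in heat. Heat replicates 2 and 4 lay within the range of the triple stress and heat plus drought, while heat replicates 1 and 3 were the lowest of all heated libraries. In the unheated groups the median was 3.26 to 3.97 TPM in salt plus drought, 1.95 to 3.27 TPM in salt, 2.42 to 2.75 TPM in drought and 1.24 to 2.36 TPM in control, so salt plus drought lay above both drought and control in every library.

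**Figure D4:**
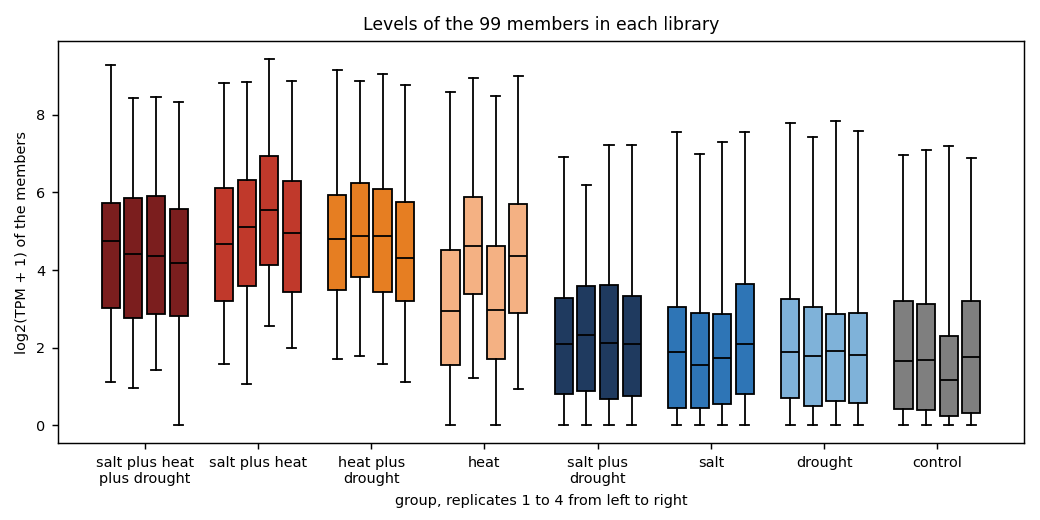
Distribution of log2(TPM + 1) over the 99 members in each of the 32 libraries, by group, heated groups on the left; boxes span the quartiles, the line is the median, and whiskers reach the lowest and highest member. The medians of heat replicates 1 and 3, at 6.66 and 6.90 TPM, are the lowest heated ones. They lie above the highest unheated median of 3.97 TPM, a separation that the rule favours.

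Salt and drought were then compared among plants of the same temperature. The rule did not compute these contrasts or the further ones among heated groups below. The same group means entered its ratios and its minimum level, however, so none of these contrasts is free of the selection. How far the selection shaped their counts and medians was not tested. The test was limma on log2(TPM + 1) with Benjamini-Hochberg adjustment over all 60684 genes tested and a threshold of 0.05. Among heated plants, salt (salt plus heat and the triple stress, over heat and heat plus drought) raised 25 of the 99 members and lowered 2, while 72 did not pass the test. Over all genes tested, 7.95% rose and 1.96% fell. The median change was 0.32 over members and 0.16 over all genes on the log2 scale. The all-gene shift of 0.16 was 0.01 under quantile normalisation, which called 18 members higher and 7 lower. With heat replicates 1 and 3 left out the split was 9 higher and 9 lower, and the median was 0.03 over members and 0.065 over all genes. For other scalings and for omitted libraries, the shares of all genes called were not counted, here and below. Leaving out salt plus heat replicate 3 gave 17 calls in place of 27, and a fit on the 4 heated groups alone gave 12.

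The 3 largest rises with salt in heated plants were in TraesCS3D02G346300, TraesCS4B02G140200 and TraesCS4A02G177600. TraesCS3D02G346300, with the values given above, had a log2 rise of 3.03 (SE 0.56, adjusted p = 0.00169 by limma), and 2.27 without heat replicates 1 and 3 (adjusted p = 0.0245). TraesCS4B02G140200 stood at 621, 135, 225 and 252 TPM in the triple stress, 129, 62.8, 694 and 59.6 TPM in salt plus heat, 215, 237, 42.9 and 64.5 TPM in heat plus drought, and 1.90, 15.7, 2.48 and 106 TPM in heat. Its libraries overlapped between salted and unsalted plants, with single values of 621 and 694 TPM far above the rest. Its change was 2.41 (SE 0.61, adjusted p = 0.0151), and 1.48 without heat replicates 1 and 3, which did not pass the test (adjusted p = 0.174). TraesCS4A02G177600 was high in the same libraries, at 245 TPM in triple stress replicate 1 and 353 TPM in salt plus heat replicate 3, against 118 ± 85.9 and 116 ± 159 TPM as the means of those groups, 38.4 ± 25.9 TPM in heat plus drought and 9.20 ± 11.2 TPM in heat (SD, n = 4 each). It rose by 2.39 (SE 0.44, adjusted p = 0.00164), and by 1.89 without heat replicates 1 and 3 (adjusted p = 0.0234).

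The group 5 set rose as a whole with salt in heated plants. The log2 changes were 2.07 for TraesCS5A02G257700 (SE 0.30, adjusted p = 0.00018), 1.88 for TraesCS5D02G266000 (SE 0.29, adjusted p = 0.000353) and 1.69 for TraesCS5B02G257000 (SE 0.26, adjusted p = 0.000351). None of these 3 calls was lost under any of 44 alternative settings, and without heat replicates 1 and 3 the changes were 1.42, 1.25 and 1.17. In droughted plants the 3 had means of 55.5, 104 and 51.1 TPM in the triple stress, against 56.2, 97.5 and 65.8 TPM in heat plus drought, so the averaged rise came mainly from salt plus heat over heat. The group 2 set rose too, by 1.23 for TraesCS2A02G277100 (adjusted p = 0.00775), 1.02 for TraesCS2D02G276000 (adjusted p = 0.0253) and 0.93 for TraesCS2B02G294500 (adjusted p = 0.0202). Leaving out heat replicates 1 and 3 gave changes of 0.81, 0.47 and 0.53, and none passed the test (adjusted p = 0.091, 0.284 and 0.22). With drought present the means of all 3 were lower with salt, at 32.01, 69.7 and 71.1 TPM in the triple stress against 58.2, 125 and 135 TPM in heat plus drought, so the averaged rise came from salt plus heat over heat. The TraesCS2B02G294500 call was also lost without heat replicate 1 or 3 alone, and that of TraesCS2D02G276000 without either of these, triple stress replicate 1, salt plus heat replicate 3 or heat plus drought replicate 4.

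The members that fell with salt in heated plants were TraesCS7A02G242200, whose log2 change was -0.71 (SE 0.21, adjusted p = 0.0323), and TraesCS1D02G403500, with -0.50 (SE 0.14, adjusted p = 0.0279). TraesCS1D02G403500 stood at 10.6, 9.5, 8.66 and 6.45 TPM in the triple stress, 14.5, 19.9, 15.5 and 20.0 TPM in salt plus heat, 24.5, 19.9, 18.3 and 18.3 TPM in heat plus drought, and 11.4, 23.5, 11.2 and 20.5 TPM in heat. Its 4 triple stress libraries were below those of every other heated group. Without heat replicates 1 and 3 the changes were -1.03 and -0.73 (adjusted p = 0.0041 and 0.00261), and TraesCS7B02G149200 also passed, at -0.76 (adjusted p = 0.0109). The TraesCS1D02G403500 call was lost without triple stress replicate 4, salt plus heat replicate 1 or 3, or heat plus drought replicate 1. That of TraesCS7A02G242200 was lost without any of triple stress replicates 1 and 4, salt plus heat replicates 1 and 3, heat plus drought replicates 1 and 3, and heat replicate 2.

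Drought among heated plants (heat plus drought and the triple stress, over heat and salt plus heat) raised 3 members and lowered 0, against 0.745% and 0.257% of all genes tested in limma. At an unadjusted p under 0.05, 13 members were higher and 3 lower, against 11.7% and 4.13% of all genes, so the members were near the background there. The median change was 0.02 over members and 0.07 over all genes. The 3 were again the group 5 set, with log2 changes of 1.54 for TraesCS5A02G257700 (SE 0.30, adjusted p = 0.0126), 1.23 for TraesCS5D02G266000 (SE 0.29, adjusted p = 0.037) and 1.09 for TraesCS5B02G257000 (SE 0.26, adjusted p = 0.0401). Without heat replicates 1 and 3 the changes were 0.89, 0.60 and 0.56, and the first passed the test (adjusted p = 0.037, 0.132 and 0.181). The TraesCS5D02G266000 and TraesCS5B02G257000 calls were lost, leaving 1 member, without any of triple stress replicates 1, 3 and 4, salt plus heat replicates 1, 2 and 4, heat plus drought replicates 1 and 2, and heat replicates 1 and 3. There were 7 calls without salt plus heat replicate 3, 5 without heat replicate 4 and 0 in a fit on the 4 heated groups alone.

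**Figure D5:**
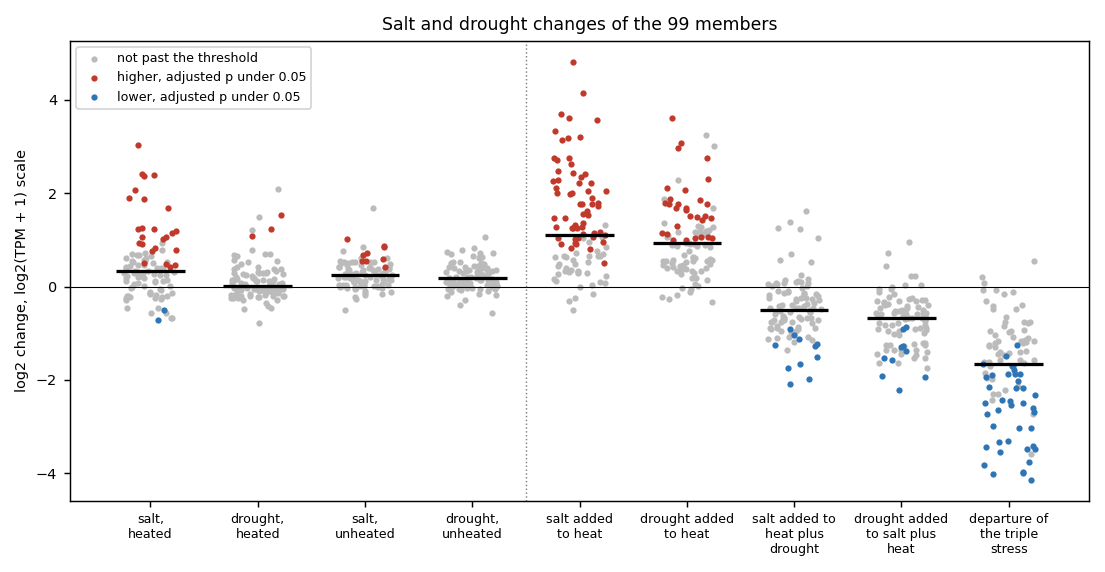
Log2 change of each of the 99 members (points) in 4 averaged salt and drought comparisons, left of the dotted line, and in 5 comparisons of single heated groups, right of it, on the log2(TPM + 1) scale, with members called higher in red, members called lower in blue and the median as a bar. Changes with salt or drought added to heat alone lie mostly above 0, and those with either added to heat and the other stress mostly below 0, with medians of 1.11 and 0.94 against -0.50 and -0.67.

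Each addition to a heated group was also compared alone, a choice made after the data were seen. Salt added to heat (salt plus heat over heat) raised 60 members and lowered 0, against 9.69% and 1.41% of all genes tested in limma. At an unadjusted p under 0.05, 68 members were higher and 1 lower, against 26.9% and 3.79% of all genes. The median change was 1.11 over members and 0.24 over all genes. Drought added to heat (heat plus drought over heat) raised 30 members and lowered 0, against 0.503% and 0.191% of all genes, and the medians were 0.94 and 0.16. There, 69 were higher and 0 lower at an unadjusted p under 0.05, against 14.1% and 2.53% of all genes. Both comparisons use the same 4 heat libraries. With heat replicates 1 and 3 left out they gave 19 higher and 1 lower with salt (median 0.53), and 3 higher and 1 lower with drought (median 0.31). The medians over all genes were then 0.0555 with salt and -0.0295 with drought. Drought added to heat gave 11, 10 and 11 calls without heat plus drought replicate 2, heat replicate 1 and heat replicate 3. It gave 6 in a fit on the 4 heated groups alone. The 3 that still rose with drought without both heat replicates were the group 5 set, by 2.31, 2.04 and 1.71 for TraesCS5A02G257700, TraesCS5B02G257000 and TraesCS5D02G266000 (adjusted p = 0.00157, 0.00305 and 0.00736), and they are named after their values were seen.

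With the other stress already present, calls went the other way. Salt added to heat plus drought (the triple stress over heat plus drought) lowered 11 members and raised 0, against 0.463% and 0.272% of all genes in limma. At an unadjusted p under 0.05, 42 members were lower and 3 higher, against 4.57% and 7.29% of all genes. The median was -0.50 over members and 0.07 over all genes. Drought added to salt plus heat (the triple stress over salt plus heat) lowered 10 and raised 0, against 0.122% and 0.124% of all genes, with medians of -0.67 and -0.01. Here 57 were lower and 0 higher at an unadjusted p under 0.05, against 6.46% and 5.45% of all genes. These comparisons share the 4 triple stress libraries. Without heat replicates 1 and 3, which enter only through the shared spread, they gave 17 and 33 falls. Under quantile normalisation they gave 23 and 32. Other settings gave fewer calls. A fit on the 4 heated groups alone gave 2 and 0, a block by title number 1 and 0, and pseudocount 0.1 gave 4 and 4.

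TraesCS1D02G403500 fell in both, by 1.12 with salt added to heat plus drought (SE 0.20, adjusted p = 0.00577) and by 0.92 with drought added to salt plus heat (SE 0.20, adjusted p = 0.0441), and its triple stress libraries did not overlap either other group. TraesCS7A02G242200 and TraesCS7B02G149200 fell with salt added to heat plus drought, by 1.52 and 1.25 (SE 0.30 and 0.26, adjusted p = 0.0108 and 0.0167). With drought added to salt plus heat they passed the test without heat replicates 1 and 3, with changes of -1.28 and -1.002 (adjusted p = 0.0193 and 0.03). The count for salt added to heat plus drought was 3 without heat plus drought replicate 1, 5 without any of triple stress replicates 1, 3 and 4, 6 without heat plus drought replicate 2 or 3, and 7 without triple stress replicate 2. The count for drought added to salt plus heat was 2 without triple stress replicate 3 or 4 or salt plus heat replicate 4, 3 without salt plus heat replicate 2, 4 without triple stress replicate 1 or 2 or salt plus drought replicate 1, and 6 without heat plus drought replicate 2 or drought replicate 3. It was 16 without salt plus heat replicate 1, 17 without heat replicate 1 and 20 without heat replicate 2.

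The difference between the effect of salt with drought and its effect without drought was tested directly in the heated groups, as the triple stress minus salt plus heat minus heat plus drought plus heat. It was below 0 beyond the threshold in 41 of the 99 members and above 0 in 0, against 0.29% and 0.0758% of all genes in limma. At an unadjusted p under 0.05 it was below 0 in 78 members and above 0 in 0, against 10.1% and 2.24% of all genes. The median was -1.67 over members and -0.17 over all genes on the log2 scale. A fit on the 4 heated groups alone, whose spread comes only from the libraries compared, gave 4 such members. Leaving out any single library gave 33 to 51 and quantile normalisation 50. Leaving out heat replicates 1 and 3 together gave 20, with a median of -1.04 over members and 0.01 over all genes. The values of the largest changes among named members were -4.14 for TraesCS5A02G257700 (SE 0.61, adjusted p = 0.00112), -4.01 for TraesCS3A02G113000 (SE 0.61, adjusted p = 0.00146) and -3.99 for TraesCS5B02G257000 (SE 0.53, adjusted p = 0.000315). These values were -2.84, -3.38 and -2.94 without heat replicates 1 and 3 (adjusted p = 0.00351, 0.0219 and 0.00127). Each SE pools the spread over all 8 groups. TraesCS3A02G113000 was listed at 0 in all 16 unheated libraries, which add no spread, so its SE can be too small for heated groups. The members share libraries and were chosen for a common heat response, so they are not independent of one another in these counts. All genes tested were not chosen in that way and are not a like background. The same holds for the other salt and drought comparisons.

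Among unheated plants, salt (salt plus drought and salt, over drought and control) raised 9 members and lowered 0, against 4.72% and 0.816% of all genes in limma. At an unadjusted p under 0.05, 28 members were higher and 0 lower, against 24.8% and 3.17% of all genes, so the share of higher members was near the background. The median was 0.25 over members and 0.17 over all genes, and quantile normalisation, which set the all-gene median to 0.01, called 1 member higher. The 3 largest rises were in TraesCS4B02G059500 (1.02, SE 0.30, adjusted p = 0.044), TraesCS4D02G059000 (0.87, SE 0.26, adjusted p = 0.0481) and TraesCS1B02G294300 (0.85, SE 0.23, adjusted p = 0.0342). TraesCS4B02G059500 stood at 27.6, 64.1, 49.6 and 21.3 TPM in salt plus drought and 44.4, 26.3, 19.8 and 30.8 TPM in salt, against 37.8, 17.7, 26.9 and 13.4 TPM in drought and 15.9, 12.6, 4.92 and 14.4 TPM in control. Salt was above control in every library, while salt plus drought and drought overlapped. TraesCS5A02G437900, a lower one, stood at 11.4 to 12.5 TPM in salt plus drought and 8.79 to 12.1 TPM in salt, against 6.63 to 8.52 TPM in drought and 5.85 to 8.55 TPM in control, with no overlap between salted and unsalted libraries (log2 change 0.55, SE 0.12, adjusted p = 0.0104).

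These 9 calls rested on few libraries. The count was 1 without any of salt plus drought replicates 2 and 3, salt replicates 1 and 4, drought replicate 4 and control replicate 3, and 2 without drought replicate 3. It was 4 without triple stress replicate 3, salt plus drought replicate 1 or control replicate 2, and 5 without triple stress replicate 2 or heat plus drought replicate 2 or 4. It was 18 without heat replicates 1 and 3, which do not enter this contrast but enter the shared estimate of the spread and the filter of genes tested. The TraesCS1B02G294300 call was lost without any of salt plus drought replicates 1 to 3, salt replicates 1 and 4, drought replicates 3 and 4 and control replicate 3. That of TraesCS4B02G059500 was lost in 20 of 44 alternatives and that of TraesCS4D02G059000 in 28 of 44. All 3 calls were lost under quantile normalisation and median-of-ratios scaling.

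Drought in unheated plants (salt plus drought and drought, over salt and control) changed 0 of the 99 members in limma, against 0.0346% of all genes tested called higher and 0.084% called lower. At an unadjusted p under 0.05, 18 members were higher and 1 lower, against 3.14% and 5.34% of all genes. The median change was 0.18 over members and -0.03 over all genes. Quantile normalisation and median-of-ratios scaling each called 2 members. The count was 1 without salt replicate 1 and 3 without drought replicate 2.

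The heat-raised genes lay on all 21 chromosomes, with at least 3 on each and 1 member not placed. Subgenome A held 29.3% of them, B 36.4% and D 33.3%, against 32.8%, 31.99% and 34.0% of the high confidence genes with a group mean of at least 5 TPM. Chromosome group 7 held 20 members (20.2%, against 13.5%), group 1 held 18 (18.2%, against 13.2%) and group 2 held 10 (10.1%, against 16.1%). Of the members, 78.8% had a single transcript model, against 69.4% of those genes. These shares are descriptions and were not tested.

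Members of the same chromosome group were also compared by their relative order along the chromosome. Members of 1 chromosome group were joined where they lie within 3% of the gene order of each other, and sets could grow through shared neighbours, to a width of up to 3.98%. By this 76 of the 99 fell into 25 sets, and 16 of the sets had members on A, B and D. In 13 sets there was exactly 1 member on each. How many sets an equal number of other genes would form was not counted. The counts below were not made for sets of other genes either, so no excess is read from them. Of the 16 sets on A, B and D, 11 had all members highest in the same heated group, which was salt plus heat in 10; without heat replicates 1 and 3 the numbers were 9 and 8. Salt added to heat raised every member of 10 of the 16 sets, and drought added to heat every member of 4. The effect of salt in heated plants was lower with drought than without it in every member of 5 sets. With heat replicates 1 and 3 left out, these 3 numbers were 2, 1 and 2. A set could join members of unlike level. TraesCS2B02G425600, TraesCS2A02G386800 and TraesCS2D02G383600, in 1 set, averaged 379, 5.29 and 17.6 TPM over the heated libraries. This set is named after its values were seen. Members with like levels could also fall into different sets. TraesCS7B02G153100 and TraesCS7A02G257100, in separate sets, averaged 92.7 and 90.2 TPM in salt plus heat, and both are named after their values were seen. Order along the chromosome does not establish that the members are copies of one another, and where copies are near identical the authors' program divides reads among them, so the values of a set are not independent; the part of shared reads in their likeness was not tested.

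A few members stood side by side. Identifier numbers at most 500 apart joined 19 members into 8 runs, 6 of them pairs. On chromosome 3A, TraesCS3A02G112900, TraesCS3A02G113000 and TraesCS3A02G113100 formed a run of 3. TraesCS3A02G113000 was listed at 0 in all 16 unheated libraries and stood at 2.70, 1.11, 2.13 and 1.18 TPM in the triple stress, 1.96, 20.2, 16.6 and 21.5 TPM in salt plus heat, 8.43, 13.1, 9.47 and 3.75 TPM in heat plus drought, and 0.73, 4.92, 0.64 and 1.74 TPM in heat. Apart from salt plus heat replicate 1, every library of salt plus heat was above every other heated library. TraesCS3A02G113100 averaged 17.3 ± 3.29, 47.1 ± 22.7, 32.8 ± 16.1 and 4.99 ± 5.003 TPM in the same groups, and TraesCS3A02G112900 averaged 2.50 ± 0.273, 13.4 ± 9.16, 14.3 ± 4.45 and 6.71 ± 6.40 TPM (SD, n = 4 each). TraesCS3A02G112900 and TraesCS3A02G113000 fell with salt added to heat plus drought, by 2.08 and 1.74 on the log2 scale (SE 0.40 and 0.43, adjusted p = 0.00972 and 0.0496).

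On chromosome 7B a run of 4 comprised TraesCS7B02G082900, TraesCS7B02G083300, TraesCS7B02G083400 and TraesCS7B02G083500, and its members did not share 1 pattern. TraesCS7B02G083400 averaged 60.1 ± 8.81, 102 ± 43.2, 51.4 ± 14.2 and 25.3 ± 16.1 TPM in the triple stress, salt plus heat, heat plus drought and heat (SD, n = 4 each) and rose with salt in heated plants by 1.18 (SE 0.27, adjusted p = 0.00873). TraesCS7B02G083500 averaged 2.50 ± 0.991, 7.42 ± 1.58, 7.17 ± 3.14 and 11.6 ± 10.4 TPM in those groups (SD, n = 4 each), with heat at 3.64, 24.8, 2.98 and 14.9 TPM. Its heat replicates 2 and 4 were its highest libraries. Without heat replicates 1 and 3 it fell with salt in heated plants, by 1.24 (adjusted p = 0.000286), while TraesCS7B02G083400 had a change of 0.77 that did not pass the test (adjusted p = 0.105). TraesCS7B02G082900 had the lowest heated mean of all members, 3.65 TPM.

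Genes next to the members were chosen by position, but only those that passed the filter of 1 TPM in at least 4 libraries were tested. Of 179 nearest high confidence models on either side, 92 were tested, and 24 of these, or 26.1%, were higher in heated plants in limma, against 7.83% of all high confidence genes tested. Another 3 were lower. Some of the 24 lie beside members of the same set by position, as TraesCS2A02G277000, TraesCS2B02G294600 and TraesCS2D02G276100 do, named after their values were seen. The neighbours are thus not independent of one another, and the share was not counted by set. The filter favours genes that reach this level only in heated libraries. Of the 92, 5 passed it in that way, and 4 of them were among the 24. Of the 87 neighbours at 1 TPM in at least 4 unheated libraries, 20 were higher (23.0%), against 7.64% of high confidence genes under the same filter, a comparison added after the data were seen. The median heat change was 0.13 over the 92 tested neighbours and 0.08 over all genes tested on the log2 scale. The largest change among the 24 was that of TraesCS4D02G212400, at a mean of 20.0 TPM in heated and 4.92 TPM in unheated libraries (log2 change 1.66, SE 0.14, adjusted p = 1.76e-09). It is named after its values were seen. Heat is confounded with greenhouse here as well, and the part of reads shared between adjacent similar genes was not tested.

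How a member's total divides among its transcripts was not used by the rule. Of 20 members with at least 2 transcripts above 0, 6 met the minimum levels, and the share of the leading transcript differed with heat in 1, against 0.726% of the 5512 genes tested. In TraesCS5A02G437900 the first transcript held 87.8% of the total in heated libraries (79.7% to 94.0%) and 78.7% in unheated libraries (61.4% to 93.1%), a difference of 9.06 percentage points (SE 1.96, adjusted p = 0.0219 by limma). The ranges overlapped. In TraesCS6B02G373800 the leading transcript held 57.1% in heated and 56.3% in unheated libraries, a difference of 0.81 points that did not pass the test (SE 1.62, adjusted p = 0.936). Without control replicate 3 a second member passed.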

How the data were processed

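TPM in the deposited table were made by the authors, per the design text and the submitters' processing notes, by aligning filtered reads with STAR and estimating abundance with RSEM 1.3.3 on the IWGSC 1.1 wheat annotation; CASAVA and Trimmomatic are named without a version. RSEM divides reads that fit several transcripts, so values of near-identical copies are uncertain. The table held 298774 transcripts, each library summed to 1000000 within 3, and 0 columns were without a sample. Samples were grouped by source name, which also numbers the replicates; the series text calls them independent biological replicates. Depth is unknown, so no counting interval or count model was used.

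TPM were summed to 269428 gene models with Python 3.11.15. Genes at 1 TPM or more in at least 4 libraries (60684, all 99 members among them) were tested as log2(TPM + 1), a scale that understates changes of low genes, with limma 3.58.1 in R 4.3.3. One model held 8 group means with 24 residual degrees of freedom. It pools the spread of heated and unheated libraries. On this scale members near 0 TPM without heat vary little there, and 32 members averaged below 1 TPM unheated. For such members the SE and adjusted p of comparisons among heated groups can be too small. Tests were two-sided, p-values were adjusted over all genes tested, and the threshold was 0.05. Interactions with heat were not tested because the rule used their ratios. Transcript shares were tested for genes at 1 TPM or more in every library.

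Genes were named by rule. These are the first 12 members by smallest ratio, the 4 of highest heated mean and the 3 largest rises and falls called in each of 4 salt and drought comparisons. To these were added the members nearest the 2-fold limit, those of highest unheated mean, runs of 3 or more, and members called for transcript share. Other named genes are marked, or belong to the set or list described. The members and lists were chosen with earlier results of these data known. Lists by function were not used, since 0 identifiers matched. The single additions, the departure, sets by position, joint omissions of libraries and the filter of neighbours on unheated libraries were added after the data were seen. The model was tested on simulated data. Alternatives were other pseudocounts, filters, scalings and blocks, fits on the 4 groups of a comparison, and omission of each library in turn.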

Additional observations from a re-analysis of the deposited data

Results flagged for a closer look

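In 10 of 124 groups of 4 libraries screened, 1 library lay far from the other 3; chance alone gives about 1 in 20. Salt plus heat replicate 1 was the low library for TraesCS2D02G276000 (88.3 TPM), TraesCS2B02G294500 (105.5 TPM), TraesCS2A02G277100 (38.6 TPM) and TraesCS7A02G242200 (211.5 TPM). TraesCS2A02G277100 was high in triple stress replicate 1, at 37.6 TPM. TraesCS7B02G149200 was high in salt plus drought replicate 4 (65.1 TPM), TraesCS1B02G294300 in salt replicate 4 (6.05 TPM) and TraesCS3D02G346300 in drought replicate 1 (17.4 TPM). The median over all 99 members was low in heat plus drought replicate 4, at 19.0 TPM, and high in salt plus drought replicate 2, at 3.97 TPM.

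The effect of salt among heated plants differed between droughted and watered plants in 41 members, each with a lower effect under drought. For 13 of them that were named for their ratio, level or salt and drought changes, limma gave a difference of -4.14 for TraesCS5A02G257700, -3.99 for TraesCS5B02G257000, -3.83 for TraesCS2A02G277100, -3.54 for TraesCS2B02G294500, -3.48 for TraesCS2D02G276000 and -3.47 for TraesCS5D02G266000 on the log2 scale. It was -3.41 for TraesCS4B02G212300, -3.33 for TraesCS2D02G033200, -3.31 for TraesCS4A02G092100, -2.98 for TraesCS6A02G316200, -2.50 for TraesCS6B02G346700, -2.43 for TraesCS1B02G294300 and -1.25 for TraesCS1D02G403500. Without heat replicates 1 and 3 the count was 20, and in a fit on the 4 heated groups alone it was 4.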

How the results depend on the processing

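Counts are of the 99 members called, and the shares of all genes called were not counted for the alternatives. Salt in heated plants gave 27, and 16 with no filter, 13 with a block by title number and 12 with the 4 groups alone; single omissions gave 17 to 38. Drought in heated plants gave 3, and 1 with pseudocount 0.1, 1 with no filter, 0 with the title block and 0 with the 4 groups alone; single omissions gave 1 to 7. Salt in unheated plants gave 9, and 14 with pseudocount 0.1, 1 with pseudocount 5, 1 with no filter, 1 with quantile normalisation, 0 with median-of-ratios scaling, 3 without the 100 most abundant genes, 18 without heat replicates 1 and 3 and 16 without these, control replicate 3 and salt replicate 3 (4 libraries); single omissions gave 1 to 13. Drought in unheated plants gave 0, and 2 with quantile normalisation, 2 with median-of-ratios scaling, 1 without the 100 most abundant genes and 2 without the 4 libraries; single omissions gave 0 to 3. Salt added to heat gave 60, and 20 without heat replicates 1 and 3 and 22 without the 4 libraries; single omissions gave 41 to 68. Drought added to heat gave 30, and 18 with no filter, 4 without the 2 heat libraries, 4 without the 4 libraries and 6 with the 4 groups alone; single omissions gave 10 to 44. Salt added to heat plus drought gave 11, and 4 with pseudocount 0.1, 7 with no filter, 23 with quantile normalisation, 21 with median-of-ratios scaling, 1 with the title block, 17 without the 2 heat libraries, 20 without the 4 libraries and 2 with the 4 groups alone; single omissions gave 3 to 15. Drought added to salt plus heat gave 10, and 4 with pseudocount 0.1, 26 with pseudocount 5, 4 with no filter, 32 with quantile normalisation, 33 with median-of-ratios scaling, 0 with the title block, 33 without the 2 heat libraries, 41 without the 4 libraries and 0 with the 4 groups alone; single omissions gave 2 to 20. The departure of the triple stress gave 41, and 20 without the 2 heat libraries, 25 without the 4 libraries and 4 with the 4 groups alone; single omissions gave 33 to 51. Neighbours higher with heat numbered 24, with 20 at 1 TPM in at least 4 unheated libraries and 21 to 27 on single omissions, and transcript share gave 1, with 1 to 2. The rule found 48 of the 99 again with 5 TPM added to group means in place of 1, and 82 to 99 on single omissions. Models of the 4 groups alone have fewer libraries to estimate the spread, and those of heated groups do not draw on the spread of unheated libraries. The part of these and of other causes was not tested. Of 924 repeats of 21 calls of named members, 779 kept the call, 145 lost it and 0 turned direction.

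Replicate numbers did not pair the libraries: deviations of same-numbered libraries correlated at -0.292 to 0.293 over 112 pairs, 27 of them above 0.1. With a replicate block the counts, in the order above, were 26, 3, 8, 0, 61, 27, 9, 11 and 39 members, 25 neighbours and 1 transcript share. Unknown depth and 4 libraries per group limit what low genes can show.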
